A study of Mus musculus with 12 samples.

Results

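The 53 genes described here encode the transforming growth factor beta (TGF-beta), bone morphogenetic protein (BMP) and activin pathway: ligands, receptors, Smads, their inhibitors, extracellular antagonists, latent-complex proteins and the Id target genes. They were chosen by gene symbol from the 22310 symbols in the count files, and all 53 symbols were listed. Of these, 52 had at least 10 reads over the 12 libraries and 50 were among the 13540 genes with enough reads to be tested. Bmp1 was listed at 0 in all 12 libraries and was dropped. Whether this comes from the symbol or annotation used in counting was not tested, so it does not show that the transcript was absent. Mstn (myostatin, a ligand that limits muscle growth) and Grem1 (a secreted BMP antagonist) did not pass the filter on low counts, with at most 1.67 and 0.534 CPM in any library (CPM is the number of reads of a gene scaled to a common library total).

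The data are bulk RNA-seq counts from activated satellite cells, the stem cells of skeletal muscle, taken from hindlimb muscle of C57BL/6 mice 3 days after injection of barium chloride, which kills fibres and sets off repair. The 4 groups were wild type and Hoxa9 knock-out, each young (3 to 4 months) and old (22 to 28 months), with 3 libraries per group. All 4 groups were injured, so none of these libraries shows uninjured muscle. The labels state neither which part of Hoxa9, a homeobox transcription factor gene, was removed, nor in which cells. Nor do they tell if each library is 1 animal, and the p-values therefore measure the spread between these libraries, which may be technical.

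TGF-beta ligands are secreted in a latent complex with latent TGF-beta binding proteins and must be released before they act. An active ligand brings type II and type I receptors together, and the type I receptor then phosphorylates Smads: Smad2 and Smad3 for TGF-beta and activin, Smad1, Smad5 and Smad9 for BMP, with Smad4 as the shared partner. In muscle, TGF-beta, activin and myostatin are known to hold back myoblast differentiation and fibre growth, while BMP signals, read out by Id genes, are known to keep satellite cell progeny dividing.

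Hoxa9 stood at 7.96, 11.4 and 11.5 CPM in the young and 14.7, 15.7 and 22.5 CPM in the old wild-type libraries, and at 7.21, 5.52 and 6.46 CPM in the young and 6.46, 4.55 and 6.39 CPM in the old knockout libraries. Between 22 and 87 reads per knockout library were still assigned to it. Reads in genes ranged from 4193433 to 20337015 per library. Satellite cell markers were present in every library, with a summed level of 4406 to 7447 CPM over 10 genes, beside fibroblast markers at 5745 to 12720 CPM over 10 genes and pericyte markers at 2778 to 4423 CPM over 8 genes. In such bulk libraries, fewer cells of a type and less RNA per cell cannot be told apart. Old knockout replicates 2 and 3 carried Ddx3y, a Y-linked gene, at 125 and 151 CPM against at most 5.11 CPM in the other libraries. Old wild-type replicate 2 and old knockout replicate 3 had the most reads outside genes, 57.1% and 70.8%. Choroid plexus markers, 6 genes with Ttr among them, summed to between 108 and 6008 CPM in wild type but 9.64 to 25.1 CPM in knockout, where Ttr was at 0. Their part in the results below was not tested. Log levels were also taken relative to the mean of each gene over the 12 libraries. This relative level rose with the GC content of the transcript in all 6 wild-type libraries (Spearman correlation over genes 0.226 to 0.471). It was lower at high GC content in each of the 6 knockout libraries (-0.525 to -0.125). The mean is shared, so opposite signs follow from a GC difference between the genotypes. They do not show how absolute levels follow GC content within a genotype.

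Per kilobase of transcript, the most abundant pathway transcripts over the 12 libraries were Id3 (193 CPM per kilobase), Fstl1 (131 CPM per kilobase), Tgif1 (81.2 CPM per kilobase), Ltbp4 (66.9 CPM per kilobase) and Ltbp1 (58.2 CPM per kilobase). Id3 is an inhibitor of basic helix-loop-helix factors and a BMP target, Fstl1 a secreted follistatin-like glycoprotein and Tgif1 a nuclear repressor of Smad2 and Smad3. Among the type I receptors, Bmpr1a (34.4 CPM per kilobase), Tgfbr1 (22.6 CPM per kilobase) and Acvr1 (21.1 CPM per kilobase) lay above Acvr1b (5.80 CPM per kilobase) and Acvrl1 (3.17 CPM per kilobase). Smad3 and Smad4 stood at 52.5 and 49.5 CPM per kilobase, Smad5 at 33.7, Smad1 at 27.9 and Smad2 at 15.9 CPM per kilobase, and Smad9 was nearly absent at 0.149 CPM per kilobase. Of the ligands, Tgfb3, Tgfb2, Tgfb1 and Bmp6 lay between 31.8 and 15.3 CPM per kilobase, while Inhba, Bmp7 and Mstn lay at 0.362, 0.346 and 0.180 CPM per kilobase. These are levels and not differences, and the lengths are those of the longest annotated transcript.

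Knockout was compared with wild type in old and in young mice to ask which pathway transcripts differ without Hoxa9, and old with young within each genotype to ask which change with age. In old mice, 10 of the 50 tested pathway genes were higher in knockout and 3 lower at an adjusted p under 0.05. Unless another setting is named, a gene passed or did not pass in edgeR's fit of all 12 libraries without GC offsets. That is 20% and 6% of the pathway genes, where 9.52% and 7.21% of all 13540 tested genes passed in these directions. In young mice, 6 were higher and 5 lower, 12% and 10% of the pathway genes against 10.9% and 10% of all tested genes, so the pathway's share there was near that of all genes. The median log2 fold change over the 50 genes was 0.24 in old and 0.038 in young mice, against -0.015 and -0.016 over all tested genes. In old mice the receptors Tgfbr1, Tgfbr2, Bmpr1a and Acvr2a rose, together with Smad5, the brakes Smurf2, Ski and Skil, and the secreted proteins Fstl1 and Fstl3, while Tgfb1, Gdf15 and Ltbp3 fell. In young mice Tgfbr1, Bmpr1a, Acvr2a, Smad5, Smurf2 and Skil rose, and Gdf11, Gdf15, Eng, Ltbp3 and Vasn fell.

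**Figure D1:**
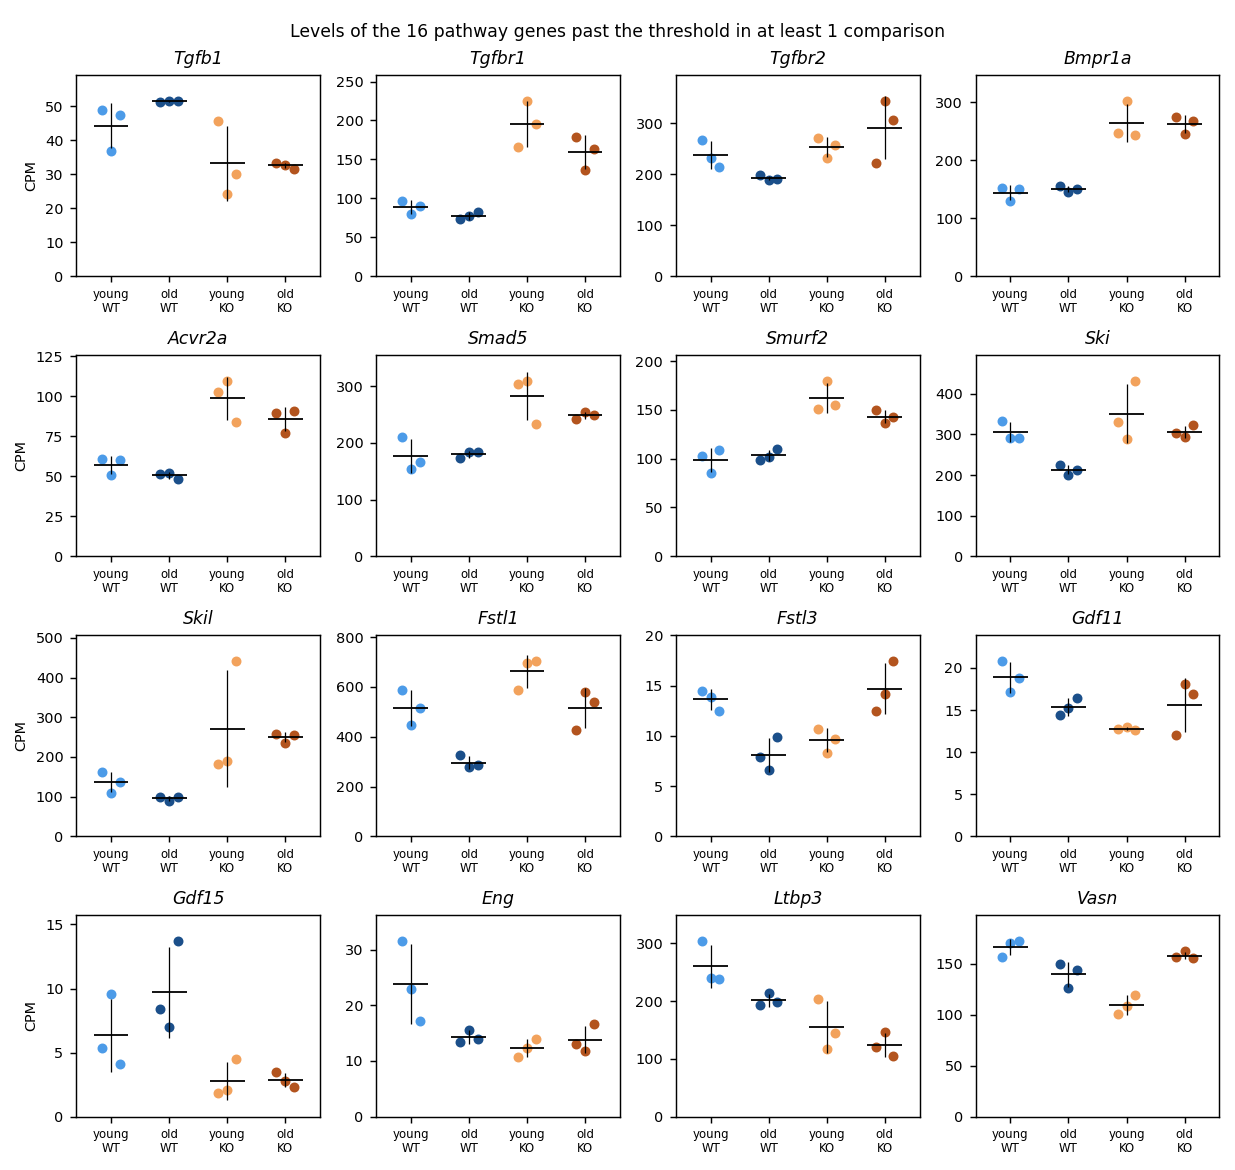
Level in CPM (vertical axes, starting at 0) of the 16 pathway genes past the threshold in at least 1 comparison, by group (horizontal axes; WT is wild type, KO is Hoxa9 knockout). Points are libraries, horizontal bars group means and vertical lines 1 SD (n = 3). Tgfbr1, Bmpr1a and Acvr2a separate all 6 knockout from all 6 wild-type libraries, while Fstl1 and Ski are lowest in old wild type.

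The 6 genes that passed upward in young mice, Tgfbr1, Bmpr1a, Acvr2a, Smad5, Smurf2 and Skil, also passed upward in old mice. They were 6 of the 10 old-mouse calls (60%) and 6 of the 6 young-mouse calls. Over all tested genes, 780 genes passed upward at both ages, 60.5% of the 1289 old-mouse calls and 52.8% of the 1477 young-mouse calls. Downward, Gdf15 and Ltbp3 passed at both ages, 2 of 3 old-mouse and 2 of 5 young-mouse calls, against 504 of 976 (51.6%) and 504 of 1354 (37.2%) over all tested genes. The share of the old-mouse upward calls was thus near that of all genes. The 2 comparisons use different libraries on both sides, but all 12 entered a single fit, and genotype and the GC trend described above are split the same way in both.

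Tgfbr1, the type I receptor for TGF-beta, stood at 96.7, 79.3 and 90.4 CPM in the young and 73.1, 76.8 and 82.8 CPM in the old wild-type libraries, and at 165, 225 and 195 CPM in the young and 179, 136 and 164 CPM in the old knockout libraries. Every knockout library lay above every wild-type library. The log2 fold change was 1.04 ± 0.15 (SE) in old mice (adjusted p = 0.0017, edgeR quasi-likelihood test with Benjamini-Hochberg adjustment) and 1.13 ± 0.15 in young mice (adjusted p = 0.000723). Bmpr1a, a type I receptor for BMP, stood at 152, 129 and 151 CPM in the young and 155, 146 and 149.9 CPM in the old wild-type libraries, and at 246, 302 and 244 CPM in the young and 274, 245 and 267 CPM in the old knockout libraries. These genotypes did not overlap either, with log2 fold changes of 0.80 ± 0.12 in old mice (adjusted p = 0.00258) and 0.88 ± 0.12 in young mice (adjusted p = 0.000931). Acvr2a is a type II receptor that binds activin and myostatin. It stood at 60.6, 50.5 and 60.2 CPM in the young and 51.6, 51.8 and 48.2 CPM in the old wild-type libraries. In knockout it stood at 102, 109 and 83.7 CPM in young and 89.4, 76.9 and 90.6 CPM in old mice. All 6 knockout libraries again lay above all 6 wild-type libraries, with log2 fold changes of 0.76 ± 0.13 in old (adjusted p = 0.004) and 0.79 ± 0.13 in young mice (adjusted p = 0.00197).

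Tgfbr2, the type II receptor that pairs with Tgfbr1, passed in old mice and not in young mice. It stood at 267, 231 and 214 CPM in the young and 198, 189 and 191 CPM in the old wild-type libraries, and at 271, 232 and 258 CPM in the young and 223, 344 and 307 CPM in the old knockout libraries. Its old groups did not overlap and its young groups did. The log2 fold change was 0.60 ± 0.15 in old mice (adjusted p = 0.0212) and 0.10 ± 0.15 in young mice (adjusted p = 0.692), and the interaction of age and genotype was 0.50 ± 0.22 (adjusted p = 0.49), so the fold changes at the 2 ages were not shown to differ. Without the 2 male old knockout libraries, which leaves replicate 1 alone in that group, the old-mouse value fell to 0.22.

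The other type I receptors Acvr1 (shared by BMP and activin ligands), Acvr1b (activin and myostatin) and Acvrl1 (a BMP9 and BMP10 receptor best known in endothelium), and the type II receptors Bmpr2 and Acvr2b, did not pass in that fit. Acvrl1 passed in old mice with the GC offsets described below, and Acvr1 in young mice with DESeq2. Acvr1 came closest to passing in young mice, at 59.5 ± 9.35 CPM in wild type and 80.2 ± 14.0 CPM in knockout (SD, n = 3; adjusted p = 0.0548). Bmpr2, a type II receptor for BMP, stood at 112 to 242 CPM, and its groups overlapped in all comparisons. Acvr2b was low throughout, at 1.87 to 5.57 CPM. Of the co-receptors and decoys, Eng (endoglin, a co-receptor known mainly from endothelium) stood at 31.5, 22.8 and 17.2 CPM in the young and 13.4, 15.6 and 13.9 CPM in the old wild-type libraries, and at 10.6, 12.3 and 13.9 CPM in the young and 13.1, 11.8 and 16.6 CPM in the old knockout libraries. Young wild type was the high group and the other groups overlapped. In young mice Eng was lower in knockout by a log2 fold change of -0.98 ± 0.22 (adjusted p = 0.00856), and in old mice the value was -0.07 ± 0.22 (adjusted p = 0.858). The summed level of 8 endothelial markers, Eng among them, was 61.2 to 78.4 CPM in young wild type and 48.0 to 87.0 CPM in young knockout. Of these 8 markers, with Eng counted, 6 had negative and 2 positive log2 fold changes in young mice, with a median of -0.65. Eng was the only 1 of the 8 that passed there. The part of endothelial cells in the change of Eng was not tested. Bambi, a decoy receptor without kinase activity, and Tgfbr3 (betaglycan, which presents TGF-beta2 to its receptor) did not pass.

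To show the sequence upstream of receptor genes that rose together in knockout, and of Ltbp3 as a gene that fell, the 250 bases before the most upstream start in RefSeq (build GRCm38.p6, not the build of the counts) were searched on both strands for 3 words. They were TTTAT (the core bound by posterior Hox proteins), CAGAC (bound by Smad3 and Smad4) and GGCGCC (a GC-rich element bound by BMP Smads), and capitals mark each match, written as it reads on the strand of the gene. The windows are chr4:47352972-47353221 (plus strand) for Tgfbr1, chr14:34502547-34502796 (minus strand) for Bmpr1a, chr2:48813859-48814108 (plus strand) for Acvr2a and chr19:5740650-5740899 (plus strand) for Ltbp3. 
Tgfbr1: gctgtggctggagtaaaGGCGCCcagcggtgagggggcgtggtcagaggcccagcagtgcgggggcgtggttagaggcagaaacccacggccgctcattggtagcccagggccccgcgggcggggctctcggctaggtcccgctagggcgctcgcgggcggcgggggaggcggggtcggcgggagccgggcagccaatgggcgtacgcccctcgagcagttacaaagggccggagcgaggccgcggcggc
Bmpr1a: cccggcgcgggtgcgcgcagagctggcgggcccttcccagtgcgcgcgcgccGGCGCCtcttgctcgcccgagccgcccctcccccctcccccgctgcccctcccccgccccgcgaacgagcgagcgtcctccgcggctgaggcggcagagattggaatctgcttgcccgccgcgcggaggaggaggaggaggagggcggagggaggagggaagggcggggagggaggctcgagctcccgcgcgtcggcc
Acvr2a: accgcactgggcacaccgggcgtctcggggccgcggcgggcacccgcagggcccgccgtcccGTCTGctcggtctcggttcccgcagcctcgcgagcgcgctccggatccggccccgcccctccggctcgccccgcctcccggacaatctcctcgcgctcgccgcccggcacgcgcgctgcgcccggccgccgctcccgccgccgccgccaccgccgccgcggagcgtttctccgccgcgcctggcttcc
Ltbp3: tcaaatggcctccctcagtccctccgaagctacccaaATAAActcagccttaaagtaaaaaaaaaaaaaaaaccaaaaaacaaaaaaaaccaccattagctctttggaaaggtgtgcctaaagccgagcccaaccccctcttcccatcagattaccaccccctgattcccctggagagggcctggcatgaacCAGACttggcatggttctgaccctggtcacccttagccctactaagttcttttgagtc
The 3 receptor windows hold 74.8%, 78.8% and 82% G and C and no TTTAT word, and the Ltbp3 window holds 47.2% G and C with 1 TTTAT and 1 CAGAC word. RefSeq windows were matched for 39 of the 53 genes. TTTAT was found in 25.6% of these 39 windows and in 38.2% of the windows of all 27025 symbols, CAGAC in 46.2% and 42.2%, and GGCGCC in 25.6% and 9.57%, while the median GC content was 68% in the pathway windows and 52% in all windows. A word of this kind is a description of the sequence and not a binding site, and the transcripts of Tgfbr1, Bmpr1a and Acvr2a themselves are GC-poor, at 41.0%, 41.3% and 39.9%.

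Among the Smads, Smad5, which carries BMP signals to the nucleus, was the gene that passed. It stood at 211, 154 and 166 CPM in the young and 173, 184 and 184 CPM in the old wild-type libraries, and at 304, 309 and 233 CPM in the young and 243, 255 and 249.6 CPM in the old knockout libraries. All knockout libraries lay above all wild-type libraries, with log2 fold changes of 0.47 ± 0.14 in old mice (adjusted p = 0.0412) and 0.67 ± 0.14 in young mice (adjusted p = 0.00615). The old-mouse call did not hold when any 1 of the 6 old libraries was left out (adjusted p 0.0688 to 0.127). The other BMP Smad of similar abundance, Smad1, stayed between 82.2 and 126 CPM, and the shared partner Smad4 between 129.8 and 196 CPM, with no call for either. Smad2 lay between 95.4 and 164 CPM. Smad3 stood at 306, 410.3 and 319.9 CPM in old wild type, against 335, 147 and 212 CPM in old knockout, which overlapped them (log2 fold change -0.58 ± 0.23, adjusted p = 0.1).

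Of the 7 inhibitory Smads, ubiquitin ligases and corepressors, 3 rose in old and 2 in young knockout, where 9.52% and 10.9% of all tested genes rose. Smurf2, a ubiquitin ligase that marks Smads and TGF-beta receptors for degradation, stood at 102, 84.9 and 109 CPM in the young and 98.9, 101 and 109.9 CPM in the old wild-type libraries, and at 151, 179.7 and 156 CPM in the young and 149.6, 136 and 143 CPM in the old knockout libraries. The knockout libraries were all higher, by a log2 fold change of 0.47 ± 0.12 in old (adjusted p = 0.0229) and 0.71 ± 0.12 in young mice (adjusted p = 0.00214). Its relative Smurf1 stayed between 98.5 and 143 CPM without a call. Skil (SnoN, a corepressor that is both a target and an inhibitor of TGF-beta Smads) stood at 162, 110.2 and 137 CPM in the young and 98.1, 89.2 and 99.4 CPM in the old wild-type libraries, and at 181, 190.1 and 441 CPM in the young and 258, 236 and 256 CPM in the old knockout libraries. The groups did not overlap at either age, and young knockout replicate 3 was far above its 2 companions. The log2 fold change was 1.39 ± 0.29 in old mice (adjusted p = 0.00984) and 0.98 ± 0.29 in young mice (adjusted p = 0.0309), and the young-mouse value was 0.48 (adjusted p = 0.0328) without young knockout replicate 3. Ski, the founding member of that corepressor family, stood at 333, 290.1 and 291 CPM in the young and 225, 201 and 214 CPM in the old wild-type libraries, and at 331, 289 and 432 CPM in the young and 304, 293 and 322 CPM in the old knockout libraries. Old wild type was the low group, and Ski was higher in old knockout by 0.52 ± 0.15 (adjusted p = 0.0282) with no call in young mice (0.20 ± 0.14, adjusted p = 0.345). The inhibitory Smad6 and Smad7, which compete for receptors, and Tgif1 did not pass.

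Of the 6 secreted antagonists and follistatins tested, 2 rose in old knockout and 1 fell in young knockout. Over all tested genes, 9.52% rose in old and 10% fell in young knockout. Fstl1, known in mouse muscle as a secreted regulator of regeneration, stood at 589, 445 and 514 CPM in the young and 326, 278 and 285 CPM in the old wild-type libraries, and at 586, 696 and 704 CPM in the young and 426, 579 and 538 CPM in the old knockout libraries. The old wild-type libraries were below the other 9. Fstl1 fell with age in wild type by 0.80 ± 0.16 on the log2 scale (adjusted p = 0.0282) and was higher in old knockout than in old wild type by 0.80 ± 0.16 (adjusted p = 0.00645). These 2 comparisons share the old wild-type libraries. The ageing call held in 1 of the 6 fits without 1 wild-type library, the one without young wild-type replicate 2 (adjusted p 0.0368 to 0.156). Fstl3, which binds and blocks activin and myostatin, stood at 14.5, 13.9 and 12.5 CPM in the young and 7.88, 6.56 and 9.87 CPM in the old wild-type libraries, and at 10.7, 8.34 and 9.69 CPM in the young and 12.5, 14.2 and 17.4 CPM in the old knockout libraries. It was higher in old knockout by 0.84 ± 0.20 (adjusted p = 0.0155), while the young-mouse value was -0.50 ± 0.20 (adjusted p = 0.0931) with the young groups not overlapping in the other direction. The interaction for Fstl3 was 1.35 ± 0.29 with an adjusted p of 0.287. Vasn (vasorin, which binds and traps TGF-beta) stood at 157, 170.3 and 172 CPM in the young and 149.6, 126 and 144 CPM in the old wild-type libraries, and at 100.2, 109 and 119 CPM in the young and 156, 162 and 155 CPM in the old knockout libraries. Young knockout was the low group, by -0.61 ± 0.11 against young wild type (adjusted p = 0.0031). In old mice the value was 0.18 ± 0.11 (adjusted p = 0.299), and the interaction was 0.78 ± 0.16 with an adjusted p of 0.264. Fst itself (follistatin) was low, at 4.63 to 12.3 CPM, and neither Fst nor the BMP antagonists Nog and Chrd passed.

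The 10 fibroblast markers summed to 10130 to 12720 CPM in the young and 5745 to 6923 CPM in the old wild-type libraries. In knockout they summed to 6982 to 8740 CPM in young and 6891 to 10900 CPM in old mice. For ageing in wild type, 2 of the 10 log2 fold changes were positive and 8 negative, with a median of -0.74. For knockout in old mice 9 were positive and 1 negative (median 0.63), and in young mice 5 were positive and 5 negative (median -0.04). Macrophage markers were at 23.0 to 40.1 CPM in young and 129.8 to 140.5 CPM in old wild type. In knockout they were at 19.8 to 149 CPM in young and 18.3 to 78.7 CPM in old mice. Tendon markers were at 93.3 to 194 CPM in young and 40.2 to 55.6 CPM in old wild type. In knockout they were at 222.8 to 393 CPM in young and 113 to 1201 CPM in old mice. None of the 10 fibroblast, 10 macrophage or 8 tendon markers was at 0 in all libraries of a group, and the part of these cell types in the levels of Fstl1, Fstl3, Ski or the receptors was not tested.

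Of the latent-complex proteins, Ltbp3 stood at 304, 239 and 239 CPM in the young and 193, 214 and 198 CPM in the old wild-type libraries, and at 204, 116 and 145 CPM in the young and 121, 146 and 104 CPM in the old knockout libraries. Knockout was lower than wild type of the same age in every library, by -0.70 ± 0.19 in old (adjusted p = 0.0266) and -0.75 ± 0.19 in young mice (adjusted p = 0.0152). Ltbp1 stood at 414, 309.5 and 426 CPM in the young and 389.8, 409 and 372 CPM in the old wild-type libraries, and at 315, 260.1 and 413 CPM in the young and 513, 409 and 428 CPM in the old knockout libraries. Its groups overlapped in all comparisons and it had no call. Ltbp4 stood at 379, 375 and 398 CPM in the young and 220.3, 246 and 227 CPM in the old wild-type libraries, and at 321, 279 and 1013 CPM in the young and 449, 185 and 231 CPM in the old knockout libraries. The old wild-type libraries lay below the young ones (log2 fold change -0.74 ± 0.47, adjusted p = 0.529), and 1 library in each knockout group was far above the others.

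Among the 12 ligand genes tested, Tgfb1 and Gdf15 passed downward in old knockout, and Gdf11 and Gdf15 in young knockout. Over all tested genes, 7.21% passed downward in old and 10% in young knockout. Tgfb1, the ligand studied most in muscle fibrosis, stood at 49.0, 36.7 and 47.3 CPM in the young and 51.3, 51.6 and 51.6 CPM in the old wild-type libraries, and at 45.6, 24.1 and 30.1 CPM in the young and 33.2, 32.9 and 31.7 CPM in the old knockout libraries. The old groups were far apart relative to their spread and the young groups overlapped, with log2 fold changes of -0.66 ± 0.20 (adjusted p = 0.0357) and -0.41 ± 0.20 (adjusted p = 0.15). The old-mouse call was lost when any 1 of the 6 old libraries was left out (adjusted p 0.0702 to 0.12). Tgfb2 stayed between 126 and 149.8 CPM in all 12 libraries. Gdf15, a stress-induced ligand of distant kinship to the family, stood at 5.39, 9.57 and 4.09 CPM in the young and 8.43, 6.96 and 13.7 CPM in the old wild-type libraries, and at 1.82, 2.05 and 4.47 CPM in the young and 3.46, 2.74 and 2.32 CPM in the old knockout libraries. It was lower in knockout in old mice, where the groups did not overlap (-1.75 ± 0.41, adjusted p = 0.0134), and in young mice, where they did (-1.26 ± 0.42, adjusted p = 0.0485). Gdf11, the close relative of myostatin, stood at 20.8, 17.1 and 18.8 CPM in the young and 14.4, 15.2 and 16.5 CPM in the old wild-type libraries, and at 12.8, 13.0 and 12.7 CPM in the young and 12.02, 18.1 and 16.9 CPM in the old knockout libraries. Young knockout was below young wild type by -0.57 ± 0.17 (adjusted p = 0.0352), a call lost when any 1 of the 6 young libraries was left out (adjusted p 0.053 to 0.119). In old mice the Gdf11 groups overlapped (adjusted p = 0.927). None of the 5 BMP ligands tested passed, nor did the activin subunits Inhba and Inhbb. Bmp5 was at 1.17, 1.79 and 1.16 CPM in old wild type and 4.36, 2.28 and 7.84 CPM in old knockout (log2 fold change 1.74 ± 0.61, adjusted p = 0.0642), and Inhba at 1.91, 2.09 and 1.77 CPM in old wild type and 3.00, 3.81 and 3.78 CPM in old knockout (0.88 ± 0.32, adjusted p = 0.0768).

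The 4 Id genes, direct BMP targets that block myogenic differentiation, did not pass in the fit of all 12 libraries without offsets, with a smallest adjusted p of 0.111. Id2 passed downward in young knockout with GC offsets (-0.51, adjusted p = 0.0293) and with GC and length offsets (-0.45, adjusted p = 0.0202). Id1 stood at 78.3 ± 12.9 CPM in wild type against 51.7 ± 15.1 CPM in knockout for young mice, and at 64.7 ± 0.0963 CPM against 47.6 ± 19.0 CPM for old mice (SD, n = 3; adjusted p = 0.111 and 0.253). Id3 varied more within knockout than between genotypes, with 124, 177 and 343 CPM in young and 322, 114 and 174 CPM in old knockout, against 275, 370.3 and 323 CPM in young and 239.6, 261 and 232 CPM in old wild type. Id2 lay between 48.6 and 68.6 CPM and Id4 between 1.66 and 14.4 CPM.

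**Figure D2:**
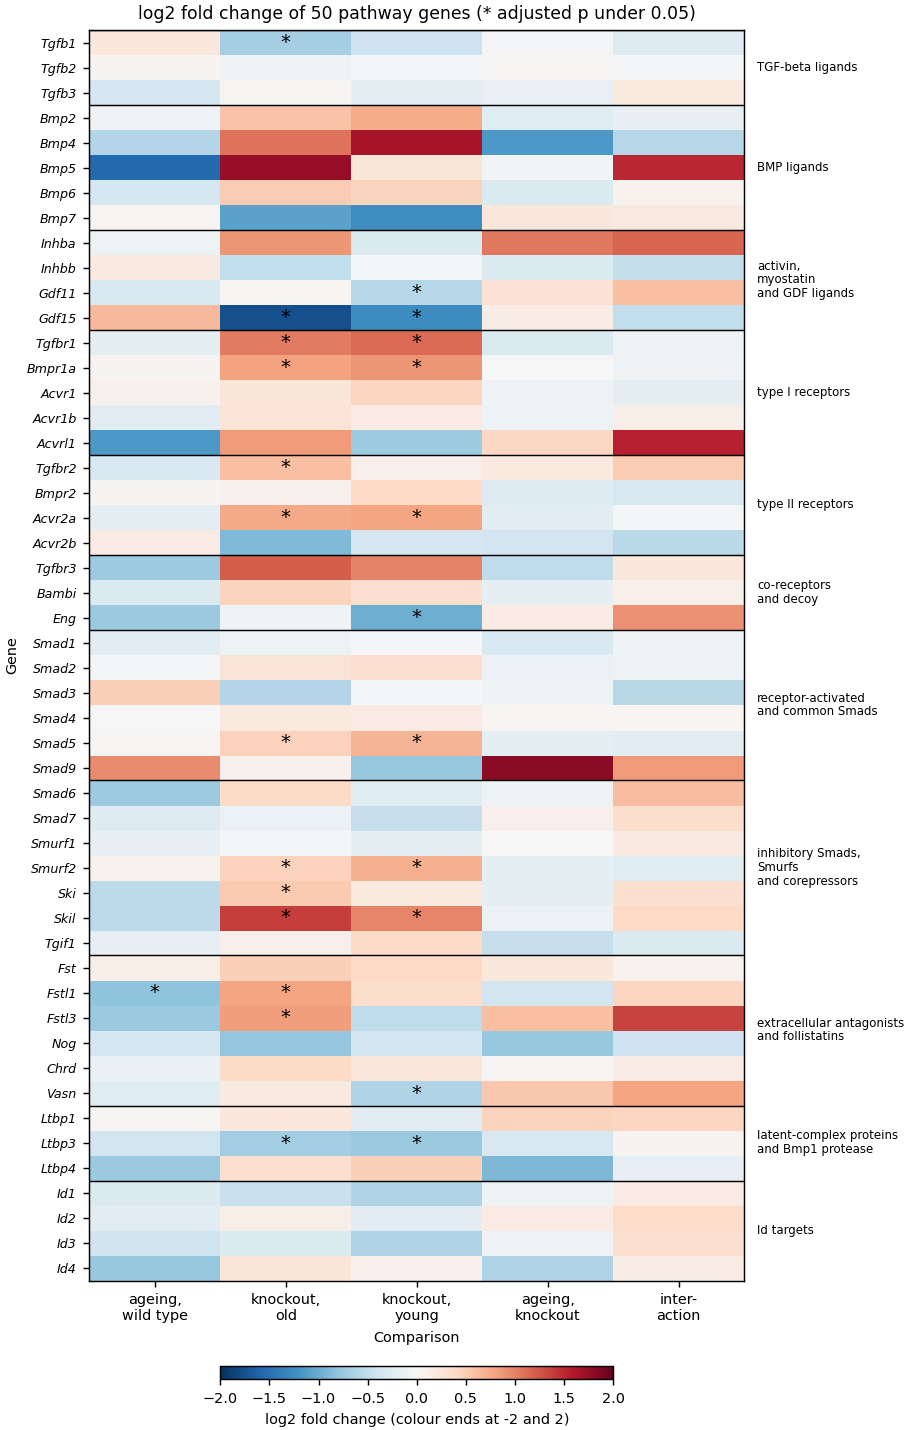
Log2 fold change (colour, scale ending at -2 and 2) of the 50 tested pathway genes (vertical axis, grouped by role) in 5 comparisons (horizontal axis): old minus young in wild type, knockout minus wild type in old and in young mice, old minus young in knockout, and the interaction. Stars mark an adjusted p under 0.05; there is 1 in the first comparison, 13 in the second, 11 in the third and none in the last 2.

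In wild type, ageing changed 1 pathway gene past the threshold, Fstl1, and the direction was downward. That is 2% of the 50 genes, where 0.805% of all tested genes fell and 0.258% rose. By value, 34 of the 50 fold changes were negative, with a median of -0.21 against 0.0065 over all tested genes. In 18 of the 50 genes (36%) all old wild-type libraries lay below all young ones, against 13.8% of all tested genes, and in 3 genes above them, against 13.1%. Beside genes already given, Acvrl1 went from 17.03, 17.9 and 13.1 CPM in young to 8.74, 7.85 and 5.04 CPM in old wild type, without overlap (-1.15 ± 0.28, adjusted p = 0.0711). In knockout it stood at 6.88, 10.5 and 12.4 CPM in young mice and 17.4, 9.57 and 12.2 CPM in old mice, and its interaction value of 1.56 ± 0.41 had an adjusted p of 0.296. In knockout against wild type in old mice, which uses the same old wild-type libraries, all 3 knockout libraries lay above all wild-type ones in 19 of the 50 genes (38%, against 21.6% of all tested genes) and below them in 4 (8%, against 20.4%). The shared libraries tie the negative values of the first comparison to the positive values of the second. In young mice 7 genes were wholly higher and 7 wholly lower in knockout, 14% each, against 16% and 19.6% of all tested genes.

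In knockout, ageing changed 0 of the 50 pathway genes in edgeR's quasi-likelihood test, where 0.0148% of all tested genes passed. At an unadjusted p under 0.05 there were 7 pathway genes (14%) and 1316 of all tested genes (9.72%). DESeq2 called 1 pathway gene, Vasn, and 136 of all tested genes. Vasn went from 109 ± 9.53 CPM in young to 158 ± 3.74 CPM in old knockout (log2 fold change 0.53 ± 0.11, adjusted p = 0.149 in edgeR). The interaction of age and genotype also passed for 0 pathway genes, against 0.0148% of all tested genes, with 7 of the pathway genes and 1316 of all tested genes at an unadjusted p under 0.05. By DESeq2 there were 2 pathway genes, Fstl3 and Vasn, and 58 of all tested genes. The ageing effect in wild type was therefore not shown to differ from that in knockout for any gene of the pathway in the edgeR test.

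Young knockout replicate 3 often held the highest level of a pathway gene. It had the highest level of all 12 libraries for 18 of the 52 genes, while the other libraries had the highest level for 1 to 6 genes each. Among genes with a mean over 1 CPM, 12 were more than 2-fold above the next young knockout replicate there, and 0 were in replicates 1 and 2. These counts were not made over all tested genes, so they do not show that the difference is particular to this pathway. Bmp4, a ligand known to induce Id genes, was at 3.07, 7.19 and 72.3 CPM in the 3 young knockout libraries, Tgfbr3 at 177, 201 and 841 CPM, Bmp6 at 27.0, 43.8 and 143 CPM, and Bmp2 at 5.55, 7.83 and 32.8 CPM. Bambi (5.14, 7.96 and 20.9 CPM), Smad6 (3.07, 3.08 and 8.20 CPM), Smad7 (29.8, 23.5 and 61.4 CPM) and Id4 (1.66, 3.98 and 14.4 CPM), known as BMP or TGF-beta responsive genes, were among the 12. Bmp7 and Gdf15, also among the 12, rested on 9 and 18 reads in replicate 3, and Smad6 and Id4 on 33 and 58. The other Id genes were not among the 12. In the 3 young knockout libraries Id1 stood at 37.6, 49.9 and 67.6 CPM. Id2 stood at 55.4, 60.3 and 51.2 CPM and Id3 at 124, 177 and 343 CPM. That library had the lowest depth, 4193433 reads in genes, the lowest share of reads outside genes, 32.2%, and the highest summed Schwann and neural markers, 640.2 CPM over 6 genes against 80.5 to 314.9 CPM in the other 11. Among the knockout libraries it also had the weakest GC trend, -0.125 against -0.525 to -0.286 in the others, and the lowest Lars2 share, 0.4845%. Whether these features account for its levels was not tested. Without it, 14 pathway genes passed for knockout in young mice, 8 higher and 6 lower, where 1850 of all tested genes were higher and 1352 lower (23.6% in all). For the interaction 2 then passed, Tgfbr3 and Vasn, against 0.82% of all tested genes.

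**Figure D3:**
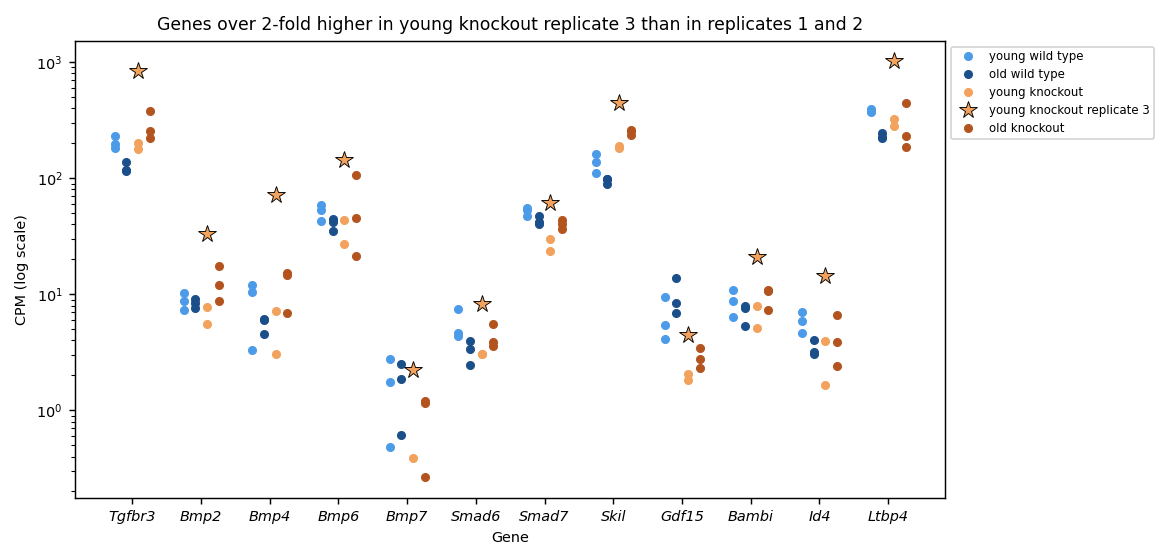
Level in CPM (vertical axis, log scale) of the 12 pathway genes more than 2-fold higher in young knockout replicate 3 (stars) than in the next young knockout library, with the other libraries as points coloured by group. Bmp7 at 0 in young knockout replicate 1 cannot be drawn on this axis. Bmp4 reaches 72.3 CPM and Tgfbr3 841 CPM in the starred library.

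Fold changes for knockout also followed the GC content of the transcripts. Across all tested genes, which are not independent replicates, the Spearman correlation of log2 fold change with GC content was -0.437 in old and -0.544 in young mice, and across the 50 pathway genes -0.47 and -0.573. The pathway genes that rose had a median GC content of 45.6% in old and 41.2% in young mice, and those that fell 58.3% and 57.5%, against 52.5% for the 50 genes. With a per-library offset for GC content, 9 pathway genes passed in old mice, 8 higher and 1 lower, and 3 in young mice, 2 higher and 1 lower, against 7.94% and 7.84% of all tested genes. In old mice Tgfbr1 (0.60, adjusted p = 0.0201), Tgfbr2 (0.58, adjusted p = 0.0369), Bmpr1a (0.38, adjusted p = 0.0413), Ski (0.74, adjusted p = 0.0111), Fstl1 (0.72, adjusted p = 0.0161), Fstl3 (1.09, adjusted p = 0.0104) and Gdf15 (-1.49, adjusted p = 0.0318) kept their call. Acvrl1 (1.08, adjusted p = 0.0406) and Vasn (0.43, adjusted p = 0.0301) gained one. Acvr2a (0.26, adjusted p = 0.141), Smad5 (0.22, adjusted p = 0.279), Smurf2 (0.33, adjusted p = 0.0836), Skil (0.95, adjusted p = 0.109), Tgfb1 (-0.56, adjusted p = 0.0935) and Ltbp3 (-0.44, adjusted p = 0.153) did not. In young mice Tgfbr1 (0.58, adjusted p = 0.0221) and Smurf2 (0.54, adjusted p = 0.0163) kept theirs, the other 9 did not, and the gene that passed downward was Id2. In their GC trend relative to the mean of the 12 libraries, all 6 knockout libraries lie opposite to all 6 wild-type libraries. Genotype and this trend therefore cannot be told apart by these libraries.

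**Figure D4:**
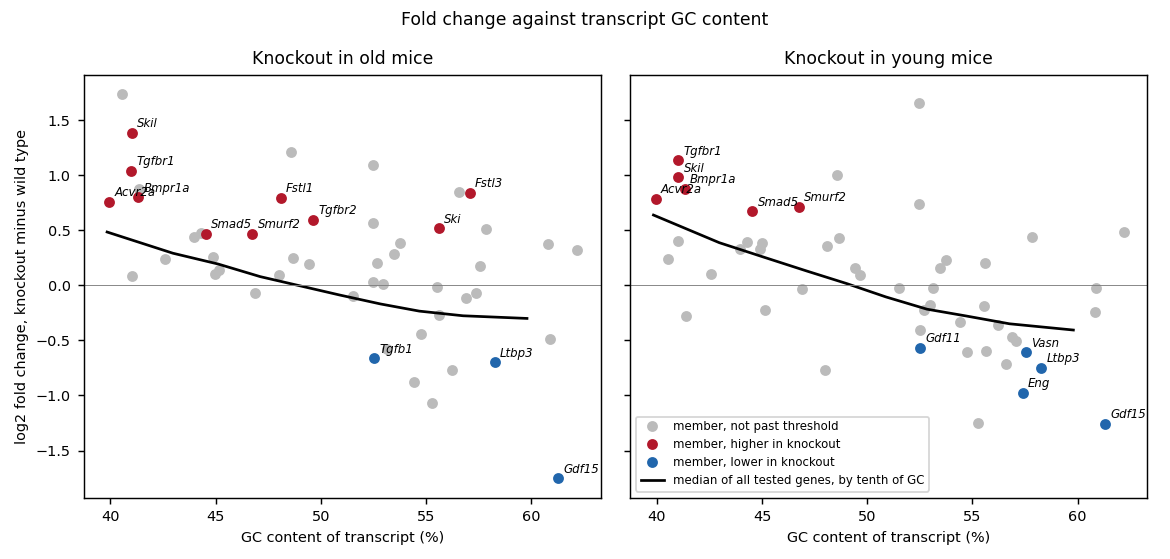
Log2 fold change, knockout minus wild type (vertical axis), against GC content of the transcript in percent (horizontal axis) for the 50 tested pathway genes in old (left) and young mice (right). Red and blue points passed the threshold upward and downward, grey points did not, and the line joins the medians of all tested genes in 10 bins of GC content. In old mice Fstl3 and Ski lie above the line at high GC content, and at both ages Tgfbr1 and Skil lie above it at low GC content.

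**Figure D5:**
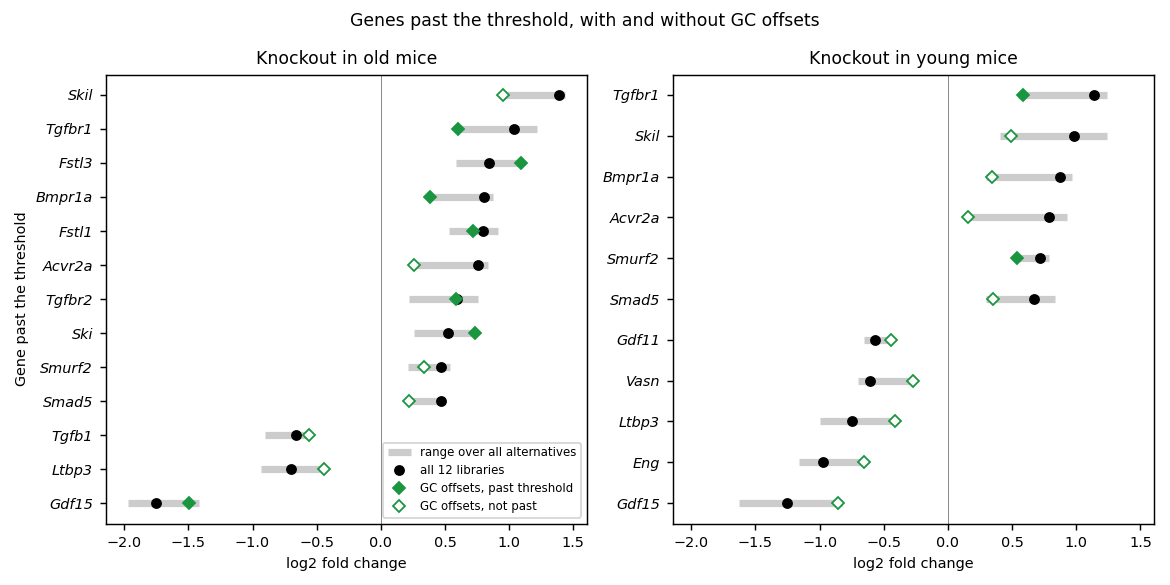
Log2 fold change (horizontal axis) of each pathway gene past the threshold (vertical axis) in old (left) and young mice (right). Black circles are the values from all 12 libraries, green diamonds those with GC offsets, filled where the gene still passed, and grey bars span all alternatives run. Tgfbr1 keeps a filled diamond at both ages, and no gene's grey bar crosses 0.

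Scaling also bears on the direction of the list. With scaling to library size alone, the median log2 fold change of all tested genes was -0.26 in old mice, -0.10 in young mice and -0.15 for the interaction, a move of -0.25, -0.088 and -0.16 from its value with TMM factors. Lars2 alone took 0.484% to 25.05% of the gene reads of the knockout libraries. Under that scaling 9 pathway genes passed in old mice, 5 higher and 4 lower, against 359 higher and 1827 lower of all tested genes. The median of the 50 genes was -0.028, which lies above the shifted median of all genes. Tgfbr1, Bmpr1a, Acvr2a, Skil and Fstl1 still passed upward, and Smad3 passed downward. Leaving out the 2 male old knockout libraries left Tgfbr1 as the only pathway gene past the threshold in old mice, where 0.657% of all tested genes then passed. Leaving out old wild-type replicate 2 and old knockout replicate 3 left 0 pathway genes and 0.0222% of all tested genes. Both settings leave groups of 1 or 2 libraries, and a lone library is assumed to vary like the other groups. Without 1 old library at a time, Tgfbr1, Bmpr1a, Acvr2a, Skil and Fstl1 passed in old mice in all 6 fits, Gdf15 in 4, Fstl3 in 3, Smurf2 in 2, and Tgfbr2, Ski and Ltbp3 in 1. Without 1 young library at a time, Tgfbr1, Bmpr1a, Acvr2a, Smad5, Smurf2, Eng and Vasn passed in young mice in all 6 fits, Skil and Ltbp3 in 4 and Gdf15 in 2.

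Further genes of the pathway were counted from lists by role, to be read against the 9.52% of all tested genes higher and 7.21% lower in old, and 10.9% higher and 10% lower in young knockout. All calls in these lists come from the fit without GC offsets. Except for genes already given above, how they hold with GC offsets or with 1 library left out was not examined. Of 20 other ligands, 7 were tested, and their smallest adjusted p over the 5 comparisons was 0.107. Of 8 other receptors and co-receptors, 5 were tested and Rgma passed. Rgma, a BMP co-receptor of the repulsive guidance family, stood at 161 ± 12.7 CPM in the young and 83.1 ± 7.55 CPM in the old wild-type libraries, and at 65.3 ± 7.09 CPM in the young and 38.7 ± 14.0 CPM in the old knockout libraries. It fell with age in wild type (-0.96 ± 0.21, adjusted p = 0.0426) and was lower in knockout in old (-1.12 ± 0.21, adjusted p = 0.00593) and young mice (-1.31 ± 0.21, adjusted p = 0.00155).

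Of 24 other extracellular antagonists and activators, 20 were tested. In old mice 7 rose (35%) and 0 fell in knockout, among them Thbs1 (thrombospondin 1, an activator of latent TGF-beta; 0.80 ± 0.18, adjusted p = 0.0106), Twsg1 (a modulator of BMP binding to chordin; 0.59 ± 0.13, adjusted p = 0.0101), the proteoglycan Dcn (decorin, which binds TGF-beta; 3.93 ± 0.77, adjusted p = 0.0108) and Itgb6 (an integrin subunit that releases latent TGF-beta; 0.63 ± 0.17, adjusted p = 0.0272). In young mice 2 rose (10%) and 3 fell (15%), among them Bgn (biglycan; -1.33 ± 0.28, adjusted p = 0.00601), Nbl1 (a secreted BMP antagonist; -0.47 ± 0.15, adjusted p = 0.0454), Furin (the protease that cuts TGF-beta precursors; -0.92 ± 0.21, adjusted p = 0.00831) and Twsg1 (0.54 ± 0.13, adjusted p = 0.0106). Dcn is also one of the fibroblast markers above, and its level spread widely in old knockout, at 305 ± 213 CPM (SD, n = 3).

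Of 21 other intracellular regulators, 20 were tested, with 4 higher (20%) and 2 lower (10%) in old and 5 higher (25%) and 2 lower (10%) in young knockout. Usp9x, a deubiquitinase of Smad4, rose from 394 ± 28.6 CPM to 769 ± 38.7 CPM in old mice (0.97 ± 0.16, adjusted p = 0.00324) and by 1.22 ± 0.16 in young mice (adjusted p = 0.000831). Sp1, a Smad partner, rose by 0.38 ± 0.12 and 0.44 ± 0.12 (adjusted p = 0.0477 and 0.0216), and Map3k7, the kinase TAK1, by 0.44 ± 0.12 and 0.47 ± 0.12 (adjusted p = 0.027 and 0.017). Trim33, a ubiquitin ligase for Smad4, rose in old mice by 0.68 ± 0.15 (adjusted p = 0.012), and Usp15, a deubiquitinase of the pathway, in young mice by 0.53 ± 0.11 (adjusted p = 0.00666).

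Of 30 transcriptional targets of TGF-beta and BMP, 27 were tested. In old mice 5 rose (18.5%) and 2 fell (7.41%) in knockout, among them Tsc22d1 (a TGF-beta induced factor; 0.46 ± 0.13, adjusted p = 0.0326), Ski and Skil as given above, and Cdkn1a (the cell cycle inhibitor p21), which went from 173 ± 35.1 CPM to 83.3 ± 12.8 CPM (-1.05 ± 0.20, adjusted p = 0.00629). In young mice 1 rose (3.7%), Skil, and 7 fell (25.9%), among them Col1a1 (-1.12 ± 0.31, adjusted p = 0.0256), Timp1 (an inhibitor of matrix proteases; -0.92 ± 0.18, adjusted p = 0.00351) and Klf10 (an early TGF-beta response factor; -0.52 ± 0.14, adjusted p = 0.0165). In wild type 1 target fell with age, Col1a1, by 1.71 ± 0.32 on the log2 scale (adjusted p = 0.0284). Like Dcn, Col1a1 is also one of the fibroblast markers above. The part of fibroblasts in its changes was not tested.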

How the data were processed

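RNA-seq libraries of satellite cells from 12 samples were compared. The deposited files hold whole-number counts per gene symbol, not normalized by the authors. Per the submitters' processing notes, TopHat, HTSeq and DESeq2 were used with genome build mm9. Per the labels' protocols, a stranded total RNA kit with ribosomal RNA removal was used. Versions, the gene annotation and the strand setting of the counter are not given in the sources used here, so overlapping and antisense genes can share reads.

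The 5 summary lines that name no gene were left out. Of the reads with 1 alignment, 32.2% to 70.8% lay outside genes and 0.433% to 1.37% were ambiguous. Genes were filtered with filterByExpr, scaled with trimmed-mean (TMM) factors and tested in edgeR 4.0.16 under R 4.3.3. A robust quasi-likelihood fit over all 12 libraries gave 1 mean per group, with Benjamini-Hochberg adjustment over 13540 genes and a threshold of 0.05. CPM are counts relative to the TMM-scaled library size. The standard error (SE) is the log2 fold change divided by the square root of F. Signs are knockout minus wild type and old minus young. The interaction is the age effect of the knockout mice less the age effect of the wild type. The code was tested on simulated data.

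The pathway members, the further lists and the marker lists were chosen with earlier results of these data known. Per-library values are given for members past the threshold in any comparison and for the 3 members with the highest mean CPM (Fstl1, Ltbp1 and Ltbp4). From each further list, up to 4 genes past the threshold with the highest mean CPM are named per comparison. Replicate libraries differed from each other (Spearman correlation over genes 0.949 to 0.99 within groups and 0.935 to 0.985 between groups).

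Alternatives were DESeq2 1.42.0, limma-voom (limma 3.58.1), other scaling factors, no filter, only the groups compared, a replicate block, offsets for GC content and for GC content with length, fits without the 2 male old knockout libraries or without the 2 libraries with most reads outside genes, and leaving out each library. GC content and length came from the longest transcript in GENCODE M21, matched for 92.3% of symbols and all 50 tested members. Upstream sequences came from RefSeq. Protein sequences were not used here.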

Additional observations from a re-analysis of the deposited data

How the results depend on the processing

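For ageing in wild type, 1 pathway gene passed, and 144 of all tested genes. There were 4 (of all genes, 462) with DESeq2, 3 (351) with limma-voom, 2 (210) without the filter on low counts, 8 (916) in a fit of only the groups compared, and 0 with library size alone, with the replicate block or without the 2 libraries with most reads outside genes; leaving out 1 library gave 0 to 1. For knockout in old mice, 13 passed (of all genes, 2265), against 1 (89) without the 2 male old knockout libraries, 0 (3) without the 2 libraries with most reads outside genes and 5 to 12 with 1 library left out. For knockout in young mice, 11 passed (of all genes, 2831), against 7 (1528) in a fit of only the groups compared, 3 (1062) with GC offsets, 4 (1273) with GC and length offsets and 8 to 14 with 1 library left out. For ageing in knockout and for the interaction, 0 passed, against 1 and 2 with DESeq2. Leaving out 1 library gave 0 to 2 for the interaction. Over all tested genes, leaving out 1 library gave 6 to 57 calls for ageing in wild type. It gave 804 to 1749 for knockout in old mice, 1534 to 3202 in young mice, 0 to 99 for ageing in knockout and 0 to 111 for the interaction.

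The median log2 fold change of the 50 genes changed sign in old mice with library size alone (-0.028). In young mice it did so with limma-voom (-0.028), upper-quartile factors (-0.0013), library size alone (-0.056), the replicate block (-0.00065) and GC and length offsets (-0.017), and it ranged from -0.15 (without young knockout replicate 3) to 0.14 with 1 library left out. With 1 library left out it ranged from -0.17 to 0.076 for ageing in knockout, and from -0.032 to 0.35 for the interaction, where library size alone gave -0.049. The cause was not tested.

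The labels do not say if equal replicate numbers pair libraries across groups. Deviations from the group means correlated at -0.261 to 0.231 between libraries of the same number. Libraries of different numbers were not compared in this way, so a pairing or batch by replicate number was neither shown nor excluded. With the replicate block 0, 12, 9, 0 and 0 pathway genes passed, in the order ageing in wild type, knockout in old mice, knockout in young mice, ageing in knockout and interaction. Of all 13540 tested genes, 79, 1779, 2399, 0 and 2 passed in the same order. The 25 calls of pathway genes kept their sign in the alternatives run. Genes without a call could change theirs: with GC offsets 7 of the 50 did in old and 8 in young mice, Bmpr2 among them. Genes at a few CPM, such as Bmp5, Bmp7, Nog, Inhba and Smad9, rest on few reads in the shallowest libraries, and a difference there may not be detectable at this depth.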
